A study of Mus musculus with 6 samples.

Results

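The genes described here handle reactive oxygen, electrophiles and free metal ions. They were chosen by name, with earlier results of these data known. The names cover metallothioneins, superoxide dismutases, catalase, glutathione peroxidases, peroxiredoxins, glutathione transferases, and the genes that make, recycle or regulate glutathione, thioredoxin, NADPH, haem and iron. Of 12235 genes in the table, 53 matched. RNA was measured in podoplanin-positive (PDPN+) cancer-associated fibroblasts, called pCAFs, from orthotopic mammary tumours of 4T1 cells, a mouse mammary carcinoma line. The hosts were BALB/c females injected at 8 weeks of age with 100000 tumour cells, and the labels name these once as 4T1-GFP and once as 4T1-luc. Cells positive for propidium iodide, Ter119, CD45 or EpCAM were removed, and PDPN+ cells were divided by surface Ly6C into a Ly6C+ and a Ly6C- group with 3 libraries each. Both groups come from tumours, so neither is a normal fibroblast control, and the labels do not say whether the 3 repetitions are separate mice or pools, so the p-values measure the spread between these libraries only.

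Superoxide dismutases turn superoxide into hydrogen peroxide, which catalase, glutathione peroxidases and peroxiredoxins then remove. Glutathione and thioredoxin supply the electrons for most of these peroxidases and are kept reduced with NADPH. Glutathione transferases couple glutathione to electrophiles, and metallothioneins are small cysteine-rich proteins that bind zinc and copper. NRF2, encoded by Nfe2l2 and held in check by KEAP1, switches on many of these genes through antioxidant response elements, while MTF1 acts on metallothionein genes through metal response elements. Extracellular superoxide dismutase and plasma glutathione peroxidase are secreted, and fibroblasts are among the cells that make the former.

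The metallothionein gene pair is shown first with its upstream sequence, because both genes moved together and lie next to each other. The 250 bases before each RefSeq start (GRCm38.p6, plus strand) are printed 5′ to 3′. For comparison, the upstream 250 bases of Gstm1 (minus strand, 1 of 2 RefSeq starts) are given. Among the transferase genes tested, Gstm1 had the largest fold change. Capitals mark the core of the metal response element, TGCACNC or TGCGCNC, or the core of the antioxidant response element, TGACNNNGC, on either strand. The windows are chr8:94172368-94172617 for Mt2, chr8:94178839-94179088 for Mt1 and chr3:108017974-108018223 for Gstm1.
Mt2: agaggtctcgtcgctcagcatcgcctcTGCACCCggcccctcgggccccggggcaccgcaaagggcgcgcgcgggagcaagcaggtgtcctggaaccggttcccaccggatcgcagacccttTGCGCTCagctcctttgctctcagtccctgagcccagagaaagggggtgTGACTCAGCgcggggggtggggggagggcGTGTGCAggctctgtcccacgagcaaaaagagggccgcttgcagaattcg
Mt1: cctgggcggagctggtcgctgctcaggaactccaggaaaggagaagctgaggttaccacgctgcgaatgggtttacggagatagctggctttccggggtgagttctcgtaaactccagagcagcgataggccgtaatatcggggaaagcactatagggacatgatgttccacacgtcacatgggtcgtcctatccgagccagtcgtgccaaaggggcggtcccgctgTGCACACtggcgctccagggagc
Gstm1: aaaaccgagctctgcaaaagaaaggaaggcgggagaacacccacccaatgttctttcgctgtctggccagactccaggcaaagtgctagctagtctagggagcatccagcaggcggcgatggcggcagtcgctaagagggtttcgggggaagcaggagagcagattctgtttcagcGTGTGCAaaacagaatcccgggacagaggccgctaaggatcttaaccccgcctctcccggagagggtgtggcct
With the 50 bases after the start included, the Mt2 window held 4 metal response cores and the Mt1 window 3, at positions 3 to 9 and 21 to 27 after the Mt1 start in addition to the copy printed above. Of 32851 RefSeq windows of this length, 0.517% held 4 or more such cores, 1.97% held 3 or more and 25.7% held at least 1. The Gstm1 window held 1 metal response core. Of 62 member windows 17 (27.4%) held at least 1, and the window of Gclm also held 3. Gclm was not called by the test defined in the next paragraph. The Mt2 window also held the antioxidant core TGACTCAGC at 79 to 71 bases before the start. GENCODE M21 places the Mt2 start 46 bases further downstream, so the window depends on the annotated start. Antioxidant cores were present in 13 of 62 member windows (21.0%, covering 46 members with a sequence entry) and in 12.4% of all windows. Besides Mt2 they were in the windows of Gsta3, Nfe2l2, Srxn1, Gstm5, Gstm7, Gclm, Prdx1, Pgd, Mgst1, Txnrd1, Sod1 and G6pdx. Of these 13 genes 11 were tested, and Mt2, Srxn1, Gstm5 and Mgst1 were called by the test defined in the next paragraph (4 of 11, against 35.4% of all tested members and 17.1% of all genes tested). The 2 kinds of core do not overlap in the printed sequences, and a match of letters is a description of the window only.

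Values below are the authors' normalised counts, in which each library was divided by its own size factor. A gene was called when its adjusted p in limma, a linear model fitted across all genes on log2(value + 1), was under 0.05 after Benjamini-Hochberg adjustment over all 9646 genes tested. Log2 fold changes are Ly6C+ minus Ly6C- on that scale and understate the change of genes with low values, and folds are ratios of group means. Over the genes in the table, the 3 Ly6C+ libraries held 2150531 to 2818269 reads and the Ly6C- libraries 1176909 to 1721480. The sort marker gene Ly6c1 measured 2316 to 3849 in Ly6C+ against 65.6 to 88.6 in Ly6C- libraries, and the fibroblast genes Col1a1 and Pdgfra were present in every library. Pdpn, the gene of the marker sorted for in both groups, had means of 209 in Ly6C+ and 95.4 in Ly6C- (adjusted p = 0.00915 by limma). The means of Pdgfra were 519 and 218 (adjusted p = 0.000192 by limma). Granulocyte markers, 7 genes summed, reached 813 in Ly6C+ replicate 1 and 0 to 15.8 in the other 5 libraries, so that library stands apart. Of 4 tested granulocyte genes limma called 0, with 3 at an unadjusted p under 0.05, 1 called by edgeR and 0 by DESeq2. Without Ly6C+ replicate 3 limma called 3 of the 4 higher, and with a pseudocount of 0.5 it called 1. With the replicate number as a block edgeR called all 4 higher and limma 1. All 4 had a Ly6C- mean of 0 and entered the test through the Ly6C+ group. The summed macrophage list (14 genes) was 161 to 399.5 in Ly6C+ against 65.6 to 223 in Ly6C- libraries. Ptprc, the gene of CD45, was at or below 4.88 and too low to be tested. All of its reads were in the Ly6C+ group, 12 against 0 in Ly6C- libraries. Of the 8 tested genes of the macrophage list all had positive log2 fold changes (median 0.62) and 1 was called, Lyz2, a lysozyme gene of myeloid cells. Tyrobp and C1qb entered the test only through their Ly6C+ means of 14.8 and 6.50, against Ly6C- means of 4.50 and 4.52, which favoured a positive sign. The Lyz2 call ended without Ly6C+ replicate 1 (adjusted p = 0.0746 by limma) or Ly6C- replicate 2 (0.0570), with the robust prior (0.112) and without the trend (0.0510), and without Ly6C- replicate 1 the list had 3 genes higher. The epithelial list (10 genes) was 12.8 to 48.7 in Ly6C+ against 119 to 360.2 in Ly6C- libraries, with 2 of 4 tested genes, Krt14 and Krt19, lower in Ly6C+ pCAFs and Epcam at or below 2.95 throughout. EdgeR called all 4 lower, as did limma without Ly6C- replicate 3. Krt14 and Krt19 entered the test only through their Ly6C- means of 30.9 and 45.2, as their Ly6C+ means were 0.711 and 3.92. Pericyte and smooth muscle genes (9 genes) summed to 190.3 to 246 and 604 to 1109, and endothelial genes (6 genes) to 21.0 to 41.5 and 38.0 to 137. Of the former 7 were tested, with 1 higher and 5 lower, and of the latter 3, with 1 higher and 2 lower. Myh11, Mcam and Egfl7, all lower, entered the test only through their Ly6C- means, and Tek, which was higher, only through its Ly6C+ mean. The 2 endothelial genes that were lower, Kdr and Egfl7, were both lost without Ly6C+ replicate 2 or 3 or Ly6C- replicate 1 or 2, and Kdr alone without Ly6C+ replicate 1. Cd3e, the lymphocyte gene analysed here, was higher, at 88.7 to 165 against 10.5 to 19.7. Of 10 fibroblast genes 5 were higher, among them Pdpn and Pdgfra, and 1 lower, Pdgfrb, a call lost without the trend (adjusted p = 0.0506 by limma). Of the adipocyte list, Fabp4 alone accounted for most of a sum of 59.5 to 129 against 8.51 to 13.8, while Adipoq was at or below 0.773. The part of these other cell types in the results below was not tested.

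Of the 53 members, 48 had a mean value of at least 5 and were tested. Of these, 15 were higher and 2 lower in Ly6C+ pCAFs and 31 were not called, a share called of 35.4%. Among all 9646 genes tested 17.1% were called, 9.41% higher and 7.66% lower. Members and the further gene lists were chosen with earlier results of these data known, so their shares called are descriptions only. The median log2 fold change was 0.37 over the members and 0.00 over all genes. The 2 groups did not overlap in 24 of the 48 members, 22 higher and 2 lower, against 33.1% of all genes tested. Of the 17 called members, 16 differed at least 2-fold. Reads of the 53 members together made up 3.61% ± 0.242 (SD, n = 3) of the reads over all genes in the table in Ly6C+ and 1.65% ± 0.0589 in Ly6C- libraries. Without Ly6C+ replicate 1, the library with granulocyte RNA, 9 members were called higher and 2 lower, and the same numbers were found without Ly6C+ replicate 2. Within the bulk RNA of a group, fewer cells of a type and less RNA per cell cannot be told apart. Scaling each library to its own total moved the median of all genes by -0.19, and 13 members were then higher and 2 lower. Under that scaling 1936 of all genes were called, of which 37.4% were higher, against 55.1% of the 1647 called without it, so the balance over all genes turned towards lower.

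**Figure D1:**
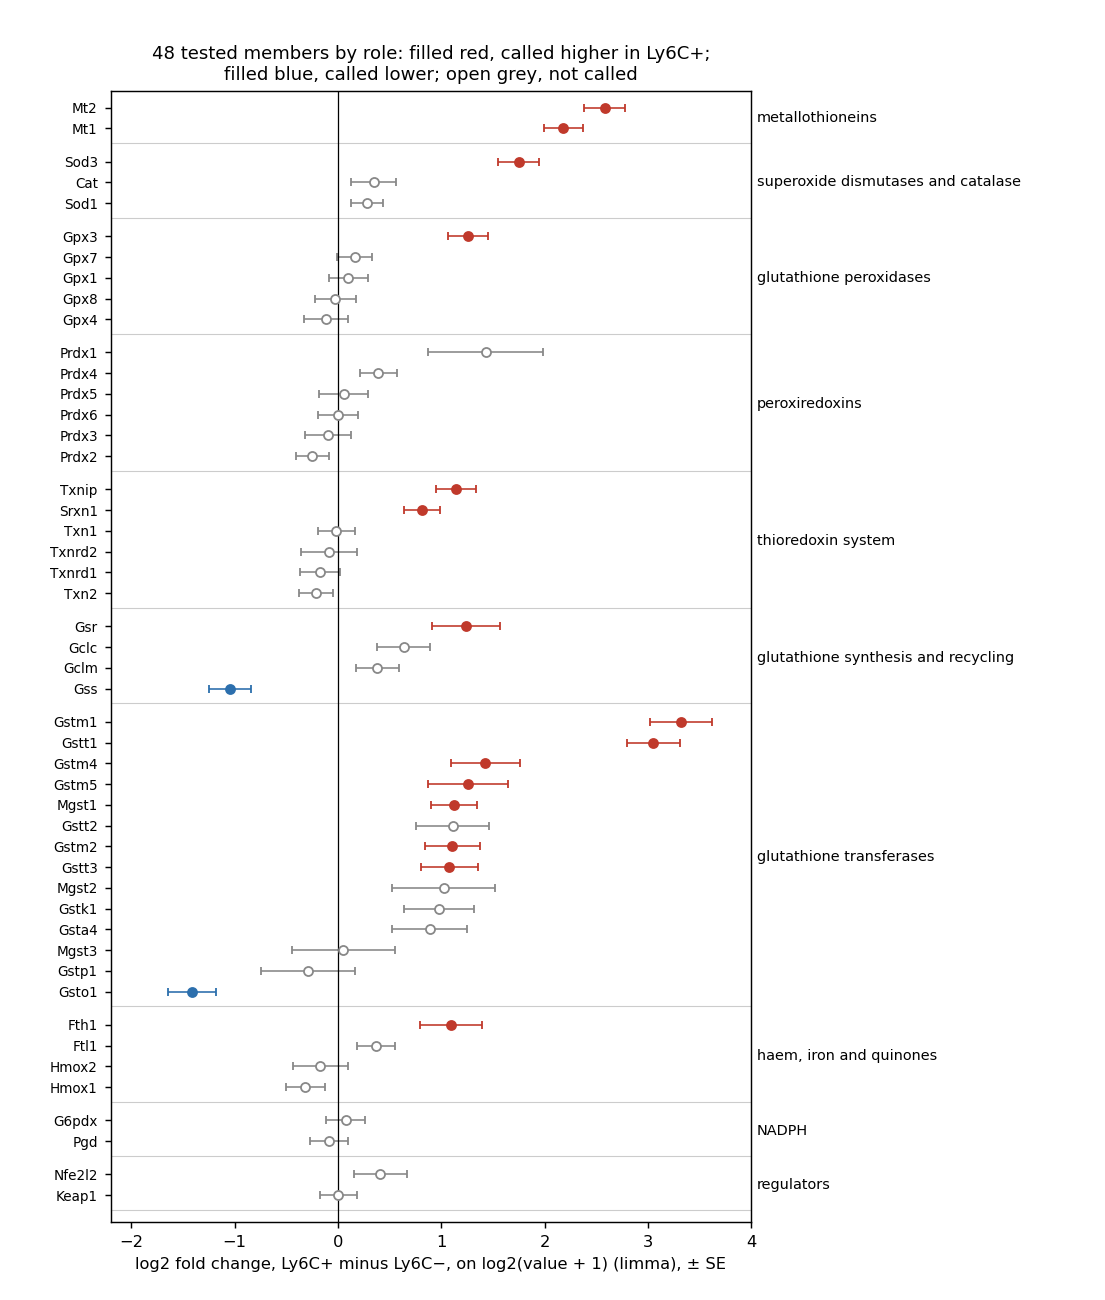
Log2 fold changes with their standard errors for the 48 tested members, grouped by role (limma on log2(value + 1), Ly6C+ minus Ly6C-). The 15 members called higher are filled red and lie mostly among metallothioneins and glutathione transferases, the 2 called lower, Gss and Gsto1, are filled blue, and the 31 not called are open.

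Both metallothionein genes were higher in Ly6C+ pCAFs. Mt2 (chromosome 8, 94172664 to 94173568, plus strand, GENCODE M21 on mm10) measured 16268, 21692 and 18432 in Ly6C+ against 2707, 3001 and 3742 in Ly6C- libraries. Its lowest Ly6C+ value was above its highest Ly6C- value by a wide margin. The difference was 5.97-fold (log2 difference 2.58 with an SE of 0.20, adjusted p = 7.45e-06 by limma). Mt1 (chromosome 8, 94179082 to 94180327, plus strand) measured 9875, 9746 and 9426 against 2021, 1760.1 and 2728, a 4.46-fold difference (log2 difference 2.18 with an SE of 0.19, adjusted p = 2.03e-05 by limma). The 3 Ly6C+ values of Mt1 lay close together, and again no libraries overlapped. The pair took 1.68% ± 0.155 (SD, n = 3) of the reads over all genes in the table in Ly6C+ and 0.357% ± 0.0538 in Ly6C- libraries. Their calls held in each of the 20 alternatives. An antisense transcript, Gm45774, shares 749 bases with Mt2 on the opposite strand, and whether counting used strand is not given in the sources used here.

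Immediate early and stress genes, which cell dissociation is known to induce, were higher alongside. Of 27 tested, 18 rose and none fell (66.7% called, against 17.1% of all genes tested), with a median log2 fold change of 0.83. Among them, Klf4 and Atf3, both transcription factor genes, had means of 1888 against 353 and 2038 against 436. After quantile normalization 11 rose. Whether they have a part in the metallothionein difference was not tested. Among 18 tested genes of zinc and copper handling, 3 rose and 1 fell, with a median log2 fold change of 0.00. The share called in this list, 22.2%, was near the 17.1% of all genes tested. The zinc importer gene Slc39a14 measured 587, 753 and 717 in Ly6C+ against 325, 339 and 287 in Ly6C- libraries (2.16-fold; adjusted p = 0.000743 by limma). The zinc exporter gene Slc30a1, a known MTF1 target, measured 17.1, 19.5 and 17.0 against 5.91, 9.36 and 7.87 (adjusted p = 0.0331 by limma). Leaving out Ly6C+ replicate 1, 2 or 3 gave 0.0951, 0.133 or 0.0793 and ended its call, as did leaving out Ly6C- replicate 1 (0.0776) or 2 (0.0543), scaling to library totals (0.0612) and DESeq2 (0.134). The count of this list fell to 1 higher and 0 lower when Ly6C+ replicate 1, Ly6C+ replicate 2 or Ly6C- replicate 2 was left out, to 2 and 0 without Ly6C- replicate 3 or without the mean-variance trend, and to 1 and 1 in DESeq2. It was 1 higher and 3 lower with libraries scaled to their totals.

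**Figure D2:**
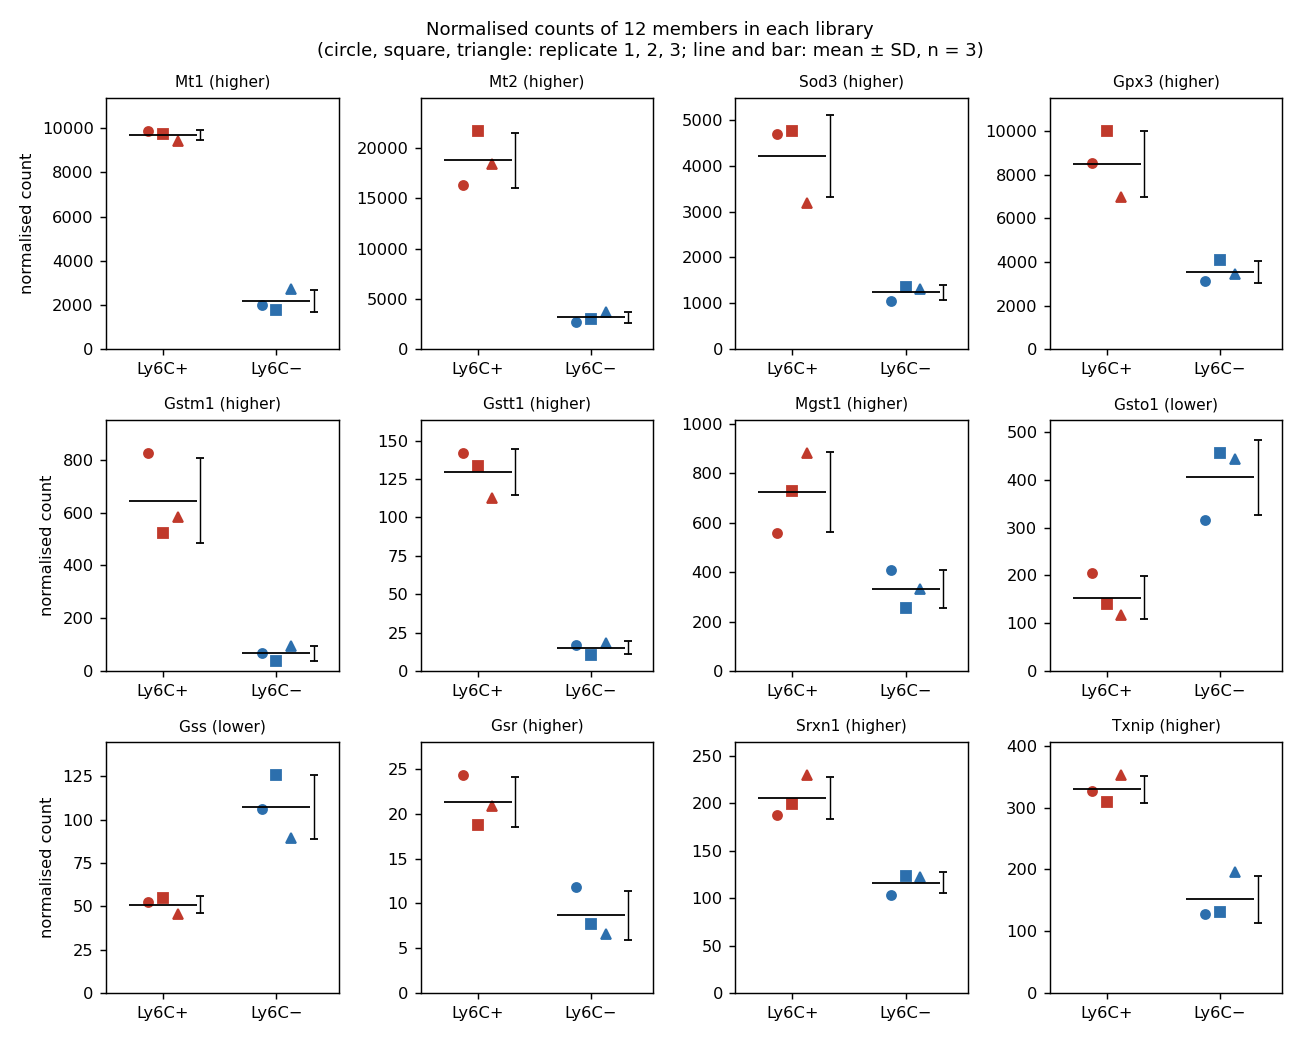
Normalised counts of 12 members in each library, with mean and SD over 3 libraries per group; vertical axes start at 0 and differ between genes. In each panel the 2 groups do not overlap; Gsto1 and Gss are the panels in which Ly6C- libraries are higher.

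Of the enzymes that remove superoxide and hydrogen peroxide, the genes of 2 secreted ones were higher in Ly6C+ pCAFs. Sod3, which encodes the extracellular superoxide dismutase, measured 4700.1, 4757 and 3176 in Ly6C+ against 1060.0, 1346 and 1304 in Ly6C- libraries. All Ly6C+ values lay above all Ly6C- values, with Ly6C+ replicate 3 the lowest of its group. The difference was 3.41-fold (log2 difference 1.75 with an SE of 0.20, adjusted p = 0.000112 by limma). Gpx3, the gene of the plasma glutathione peroxidase, measured 8517, 9999 and 6951 against 3107, 4084 and 3429.7, with means of 8489 ± 1524 and 3540.3 ± 498 (SD, n = 3; log2 difference 1.25 with an SE of 0.19, adjusted p = 0.000992 by limma). Its groups did not overlap either. Both calls held in each of the 20 alternatives. Selenop, a secreted selenium carrier that belongs to the list of other thioredoxin-fold and repair genes, was 7.04-fold higher (818 ± 164 against 116 ± 31.6, SD, n = 3; adjusted p = 1.01e-05 by limma). It was the only 1 of 28 tested genes of that list that rose, and 2 fell, Nxn (nucleoredoxin) and Msrb3 (a methionine sulfoxide reductase). Of that list 10.7% were called, against 17.1% of all genes tested, and its median log2 fold change was -0.02. Msrb3 lost its call when Ly6C+ replicate 1, Ly6C+ replicate 2 or Ly6C- replicate 3 was left out (adjusted p by limma of 0.0945, 0.0664 and 0.0574) or the trend was dropped (0.0738), and without Ly6C- replicate 1 the list had 3 genes higher.

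The intracellular enzymes of these families that had an entry in the table were not called in limma. Sod2, the gene of the mitochondrial superoxide dismutase, had no entry, so its level is unknown. Sod1, the cytosolic superoxide dismutase, measured 578, 621 and 602 in Ly6C+ against 472, 448 and 568 in Ly6C- libraries (adjusted p = 0.277 by limma), without overlap but with a log2 fold change of 0.28 (95% interval -0.06 to 0.63). Cat, which encodes catalase, measured 44.5, 39.8 and 54.1 against 34.4, 34.9 and 38.0 (adjusted p = 0.338 by limma), also without overlap. Gpx1, the main cytosolic glutathione peroxidase, measured 1360.2, 1409 and 1343 against 978, 1393 and 1534, with overlap, and its interval ran from -0.31 to 0.51. Gpx7 and Gpx8, peroxidases of the endoplasmic reticulum, had log2 fold changes of 0.16 and -0.03. Gpx4, which reduces lipid peroxides in membranes, measured 51.2 to 77.4 over the 6 libraries, and 88.9% of the 50-base stretches in its last 500 transcript bases also occur in transcripts of other genes, so its level is uncertain. Gpx2, an intestinal form, was at 0 in all 6 libraries. None of the 6 peroxiredoxins was called in limma, with 2 at an unadjusted p under 0.05 (Prdx1 and Prdx4). EdgeR called 0 of them and DESeq2 1, Prdx1. Prdx4, the peroxiredoxin of the endoplasmic reticulum, measured 443, 506 and 488 against 303, 363 and 438, without overlap. Prdx1 varied within both groups, with 45.1, 10.5 and 20.1 in Ly6C+ against 3.94, 5.95 and 15.7 in Ly6C- libraries. With Ly6C- replicate 3 left out it passed in limma (log2 difference 1.93; adjusted p = 0.0257). Prdx2, Prdx3, Prdx5 and Prdx6 had log2 fold changes of -0.25 to 0.05.

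In the thioredoxin system, 2 of 6 genes were called, both higher. Txnip, whose product binds thioredoxin and restrains glucose uptake, measured 326, 309 and 353 in Ly6C+ against 128, 131 and 195 in Ly6C- libraries, 2.18-fold higher (adjusted p = 0.00193 by limma). Srxn1, sulfiredoxin, which restores over-oxidised peroxiredoxins, measured 187, 199 and 230.3 against 103, 123 and 122, 1.77-fold higher (adjusted p = 0.00719 by limma). Both were without overlap and called in each alternative. Thioredoxin itself did not pass, with Txn1 at 908, 1064 and 1309 against 1023, 1027 and 1239 and a 95% interval of the log2 fold change of -0.41 to 0.38. Its mitochondrial form Txn2 and the reductase genes Txnrd1 and Txnrd2 had log2 fold changes of -0.21, -0.17 and -0.08 and were not called.

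Genes of glutathione synthesis and recycling went in different directions. Gss, glutathione synthetase, which completes the tripeptide, was lower in Ly6C+ pCAFs, at 52.5, 54.9 and 45.6 against 106, 126 and 89.2. The groups did not overlap, and the Ly6C- mean was 2.10-fold higher (log2 difference -1.05 with an SE of 0.20, adjusted p = 0.0042 by limma). Gss lies on chromosome 2, minus strand, and Acss2 on the opposite strand shares 22544 bases with it. Acss2 measured 5.41 to 9.77 in Ly6C+ against 3.40 to 4.92 in Ly6C- libraries. The strand setting of the counting is not given, and a part of this overlap in the Gss values was not tested. Gsr, glutathione reductase, was higher at low values, with 24.4, 18.8 and 20.9 against 11.8, 7.66 and 6.56 (2.46-fold; adjusted p = 0.0226 by limma). Leaving out Ly6C+ replicate 1, 2 or 3 ended that call (adjusted p = 0.104, 0.0587 or 0.0646), as did leaving out Ly6C- replicate 2 (0.0785) and the use of DESeq2 (0.0750). Gclc and Gclm encode the catalytic and modifier subunits of glutamate-cysteine ligase, which catalyses the rate-limiting step, and both are NRF2 targets. Gclc measured 39.6, 39.1 and 36.3 in Ly6C+ against 19.7, 22.1 and 32.8 in Ly6C- libraries, without overlap, and did not pass (log2 fold change 0.64; adjusted p = 0.123 by limma). Without Ly6C- replicate 3 it passed (0.85; adjusted p = 0.0376). Gclm measured 54.3, 72.9 and 65.7 against 45.3, 46.8 and 55.1 and did not pass (0.38, 95% interval -0.08 to 0.84; adjusted p = 0.269 by limma).

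Turnover of glutathione inside and outside the cell, and its use by other enzymes, were covered by 18 further tested genes. Of these 4 rose and 3 fell (38.9% called, against 17.1% of all genes tested), with a median log2 fold change of -0.09. The membrane peptidase genes Anpep and Dpep1, both able to cleave peptides derived from glutathione conjugates, exceeded their Ly6C- means 5.09-fold and 3.28-fold in Ly6C+ pCAFs. Oplah, 5-oxoprolinase, which returns glutamate from glutathione breakdown, was 4.90-fold higher. Ltc4s, which joins glutathione to leukotriene A4, measured 99.4, 45.9 and 38.6 against 7.87, 2.55 and 2.62, 14.1-fold higher (adjusted p = 0.000274 by limma). It entered the test only through its Ly6C+ mean of 61.3, as its Ly6C- mean was 4.35, and without Ly6C- replicate 1 the fold was 23.7. The members of that list that fell, Chac1, Lap3 and Glrx, were named after their values were seen: Chac1, a glutathione-degrading enzyme, measured 6.71, 4.51 and 5.41 in Ly6C+ against 21.7, 27.2 and 26.2 in Ly6C- libraries. The list gave 4 higher and 3 lower in each of the 6 fits that left out 1 library.

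Glutathione transferases, the largest role, held the most called members, 7 higher and 1 lower of 14 tested (57.1%). Among all tested members 35.4% were called, and among all genes tested 17.1%. The median log2 fold change of the transferases was 1.09. Gstm1, a mu-class transferase, measured 826, 524 and 585 in Ly6C+ against 68.9, 37.4 and 94.4 in Ly6C- libraries. Every Ly6C+ value was several times the highest Ly6C- value. It was 9.64-fold higher, the largest fold among the called members (log2 difference 3.32 with an SE of 0.30, adjusted p = 2.62e-05 by limma). Gstt1, of the theta class, measured 142, 134 and 113 against 16.7, 10.2 and 18.4, 8.58-fold higher (log2 difference 3.05 with an SE of 0.25, adjusted p = 1.31e-05 by limma). Mgst1, a membrane-bound transferase of the endoplasmic reticulum and outer mitochondrial membrane, measured 559, 729.9 and 883 against 410.4, 254 and 332 (2.18-fold; adjusted p = 0.00465 by limma). These 3 passed in each of the 20 alternatives and none overlapped between groups.

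The other mu and theta genes had smaller folds. Gstm2 measured 390.4, 308 and 209 in Ly6C+ against 156, 165 and 97.0 in Ly6C- libraries, 2.17-fold higher (adjusted p = 0.0136 by limma). Gstm4 measured 42.1, 39.1 and 25.5 against 13.8, 17.0 and 7.87, 2.76-fold higher (adjusted p = 0.0128 by limma). Gstm5 measured 82.3, 72.2 and 47.1 against 39.4, 36.6 and 13.1, 2.26-fold higher (adjusted p = 0.0464 by limma). In all 3 the groups were apart, and replicate 3 was the lowest of each group. Gstt3 measured 59.2, 66.9 and 35.5 against 27.6, 20.4 and 24.9, 2.22-fold higher (adjusted p = 0.0202 by limma). These 4 calls depended on single libraries, and those of Gstm5 and Gstm2 also on the processing. Without Ly6C+ replicate 1 or 2 the adjusted p was 0.0712 or 0.0513 for Gstm2, 0.0739 or 0.0607 for Gstm4, 0.183 or 0.140 for Gstm5 and 0.0938 or 0.105 for Gstt3, so that only 3 transferases were then called higher. Without Ly6C- replicate 2 it was 0.0566 for Gstm5 and 0.0896 for Gstt3, and without Ly6C- replicate 3 it was 0.0729 for Gstm5. Gstm5 also lost its call after quantile normalization (0.0532), with recomputed median-of-ratios (0.0523), scaled to library totals (0.0819) and without the trend (0.106), and Gstm2 without the trend (0.0561). Gstt2 (20.1, 18.8 and 13.9 against 10.8, 5.95 and 6.56) did not overlap either and reached a limma adjusted p of 0.0525. It passed without Ly6C- replicate 1 (0.0255), with a pseudocount of 5 (0.0470), without the trend (0.0326) and with the robust prior (0.0497).

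Gsto1, of the omega class, which reduces dehydroascorbate and glutathionylated proteins, was the transferase that fell. It measured 205, 139.8 and 117 in Ly6C+ against 316, 457 and 443 in Ly6C- libraries, without overlap, and was 2.64-fold higher in the latter (log2 difference -1.41 with an SE of 0.23, adjusted p = 0.00146 by limma). Its call and that of Gss held in each of the 20 alternatives. Cfap43 shares 9821 bases with Gsto1 on the opposite strand and stayed at or below 4.51, and a part of this overlap in the Gsto1 values was not tested. Gstk1, a mitochondrial and peroxisomal transferase, Gsta4, which removes 4-hydroxynonenal, and Mgst2 had log2 fold changes of 0.98, 0.89 and 1.02 and were not called. Gstk1 passed without Ly6C- replicate 3 (adjusted p = 0.00682). Mgst2 entered the test only through its Ly6C+ mean of 8.66, as its Ly6C- mean was 3.67. Gstp1, the pi-class enzyme, measured 3.01 to 8.51 over the 6 libraries, and 75.2% of the 50-base stretches of its last 500 transcript bases are shared with Gstp2 and a pseudogene. Mgst3 was at 4.64 to 17.1 and was not called. The untested transferases had few reads. Gstm6 had 25 reads in Ly6C+ and 1 in Ly6C- libraries (ratio 17.3, 95% counting interval 2.84 to 711). Gstm7 had 11 and 2 reads (ratio 3.81, interval 0.832 to 35.4) and Gsta3 had 8 and 1 (ratio 5.54, interval 0.743 to 246), and these intervals cover counting error only.

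The mu-class genes lie side by side on chromosome 3 (107895821 to 108044894, 149074 bases), the theta-class genes on chromosome 10 (75774115 to 75837424, 63310 bases), and Mt1 and Mt2 within 7664 bases of chromosome 8. All 4 tested mu genes were called higher, as were 2 of 3 tested theta genes. The nearest tested neighbours, looked up after the member values were seen, are given as values. Beside the metallothioneins, Nup93 had a log2 fold change of 0.10 and Bbs2 1.62 at low values (means 16.6 and 5.70). Csf1 and Ampd2 flanked the mu genes with 0.63 and -0.67, and Ddt and Mif flanked the theta genes with 0.65 and -0.62. Of these 6 flanking genes 5 were called, Bbs2, Csf1 and Ddt higher and Ampd2 and Mif lower (adjusted p = 0.0489, 0.0172, 0.0281, 0.0105 and 0.0381 by limma), and each of the 5 lost its call in at least 1 alternative. Gm20441, annotated as protein coding, overlaps Gstt3 on the same strand by 6840 bases.

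**Figure D3:**
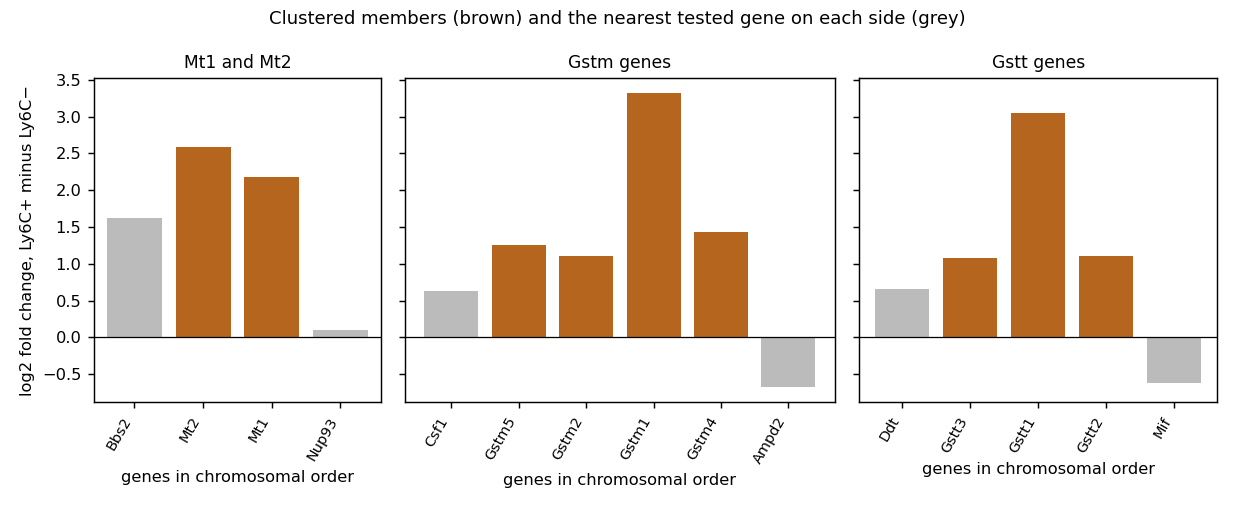
Log2 fold changes (Ly6C+ minus Ly6C-) of tested metallothionein, mu-class and theta-class members in chromosomal order, brown, with the nearest tested gene on each side, grey. Gstm1 (3.32) and Gstt1 (3.05) stand above the other members of their clusters, and Ampd2 (-0.67) and Mif (-0.62) lie below 0.

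Among the genes of haem, iron and quinones, 1 of 4 tested was called. Fth1, the ferritin heavy chain that oxidises and stores iron, measured 8453, 7840.0 and 5823 in Ly6C+ against 5673, 2983 and 2345 in Ly6C- libraries. The lowest Ly6C+ value was just above the highest Ly6C- value. It was 2.01-fold higher (log2 difference 1.09 with an SE of 0.30, adjusted p = 0.0259 by limma), and the call depended on single libraries. The adjusted p by limma was 0.117 when Ly6C+ replicate 1 was left out, 0.0839 for Ly6C+ replicate 2, 0.108 for Ly6C- replicate 2 and 0.0670 for Ly6C- replicate 3. After quantile normalization it was 0.135, with a log2 fold change of 0.66, and it was 0.0563 scaled to library totals and 0.0834 without the trend. The light chain gene Ftl1 measured 1699.9, 1460.5 and 1247 against 1356, 943 and 1121, with overlap, and did not pass (adjusted p = 0.228 by limma); 80.9% of its 50-base stretches near the transcript end are shared with 15 other genes. Macrophages express both ferritin genes. The macrophage sum was 161 to 399.5 in Ly6C+ against 65.6 to 223 in Ly6C- libraries, with Lyz2 higher, and its part in the ferritin values was not tested. Hmox1, haem oxygenase 1, a classical NRF2 target, measured 218, 216 and 155 in Ly6C+ against 252, 210.1 and 267 in Ly6C- libraries, which missed the threshold (log2 fold change -0.32, 95% interval -0.74 to 0.10). The constitutive form Hmox2 had a log2 fold change of -0.17. Nqo1, the NRF2 target that reduces quinones, had 4 reads in Ly6C+ and 3 in Ly6C- libraries (ratio 0.924, counting interval 0.156 to 6.31), so a difference was not detectable at this depth.

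Of 16 other tested genes of iron handling, 5 rose and 0 fell in limma (6 at an unadjusted p under 0.05, 5 called by edgeR and 5 by DESeq2). Their share called was 31.25%, against 17.1% of all genes tested, and their median log2 fold change was 0.28. Steap4, a metalloreductase, was 9.86-fold higher in Ly6C+ pCAFs (adjusted p = 1.1e-05 by limma). Lcn2, lipocalin 2, which binds bacterial siderophores, was 6.51-fold higher, Bmp6, the inducer of hepcidin in liver, 8.72-fold, and Cp, the ferroxidase ceruloplasmin, 3.86-fold. Bmp6 entered the test only through its Ly6C+ mean of 42.1, as its Ly6C- mean was 4.83. The other gene that rose, Steap3, was named after its values were seen. The count was 5 or 6 in each fit that left out 1 library.

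The regulators were not called. Nfe2l2 measured 89.0, 129 and 189 in Ly6C+ against 95.5, 85.9 and 111 in Ly6C- libraries. The spread was wide in the Ly6C+ group, whose lowest value lay among the Ly6C- values (log2 fold change 0.41, 95% interval -0.16 to 0.98; adjusted p = 0.338 by limma). Keap1 measured 177, 159 and 153 against 173, 184 and 134, with an interval of -0.40 to 0.40. The NADPH-producing enzymes of the pentose phosphate pathway were not called either, G6pdx at 131, 127 and 107 against 103, 107 and 138 and Pgd at 296, 249.6 and 222 against 298, 297 and 222. In both roles limma called 0 of 2, with 0 at an unadjusted p under 0.05 and 0 by edgeR or DESeq2. Their intervals reached from -0.34 to 0.49 for G6pdx and from -0.50 to 0.32 for Pgd.

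**Figure D4:**
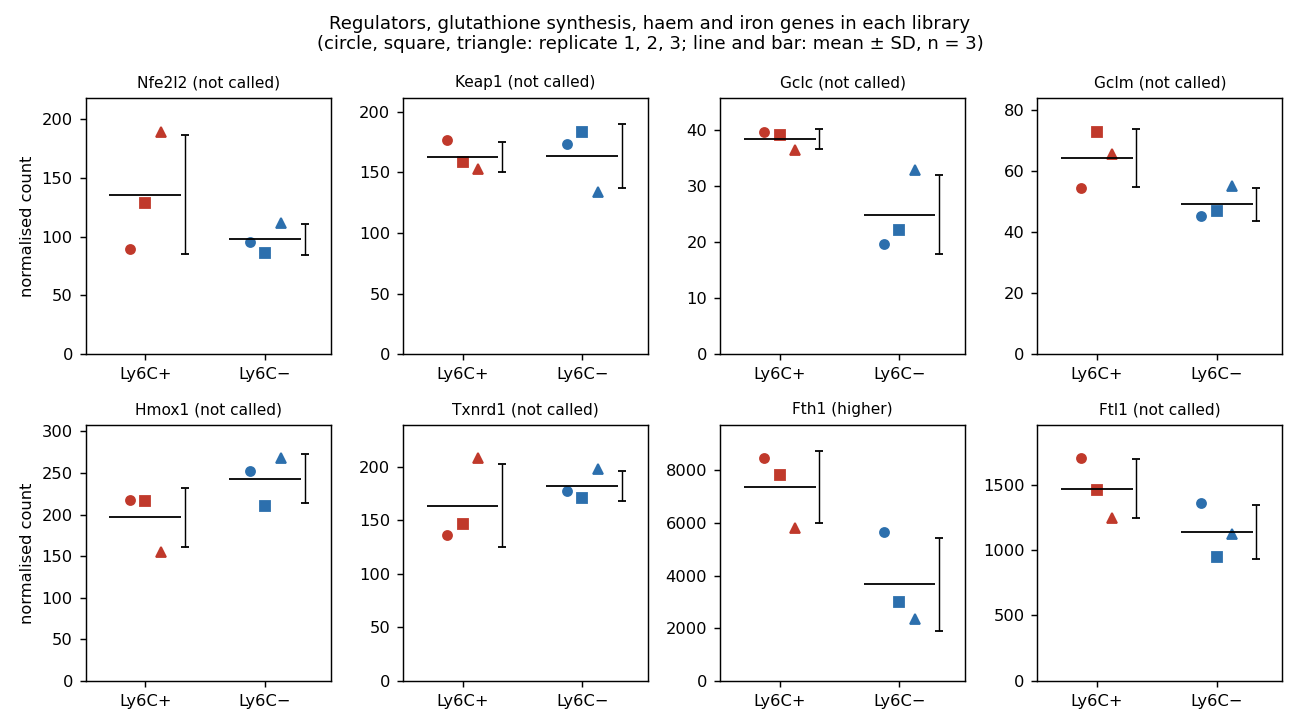
Normalised counts in each library of Nfe2l2, Keap1, the glutamate-cysteine ligase genes, Hmox1, Txnrd1 and the ferritin genes, with mean and SD over 3 libraries per group and axes from 0. Of these 8 genes Fth1 was called; Gclc also shows no overlap, while Nfe2l2, Keap1, Gclm, Hmox1, Txnrd1 and Ftl1 overlap.

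Other genes that respond to NRF2 or partner it were called in 8 of 24 tested, 6 higher and 2 lower. This share of 33.3% stood against 17.1% of all genes tested, and their median log2 fold change was 0.28. Ugdh, UDP-glucose dehydrogenase, which also feeds hyaluronan synthesis, was 4.11-fold higher in Ly6C+ pCAFs (1026 against 249; adjusted p = 3.59e-05 by limma). Blvrb, biliverdin reductase B, was 2.75-fold, Pir (pirin) 3.65-fold and Cbr3, a carbonyl reductase, 2.13-fold higher. Those that fell were the glutathione conjugate exporter Abcc1 and the aldo-keto reductase Akr1b8, both named after their values were seen. Akr1b8 lost its call without Ly6C+ replicate 1 or 2 (adjusted p = 0.157 or 0.110 by limma), Ly6C- replicate 2 or 3 (0.0784 or 0.0891) or the trend (0.118). Without Ly6C+ replicate 1 the list had 4 higher and 1 lower. Of 13 further genes of NADPH supply, 2 rose and 2 fell (30.8% called, against 17.1% of all genes tested). Idh1 was 2.07-fold and Rpia 2.55-fold higher in Ly6C+ pCAFs. The mitochondrial folate enzyme gene Mthfd2 was lower in Ly6C+ pCAFs (70.2 against 139, adjusted p = 0.00322 by limma). Aldh1l2 was the other that fell, a call lost when Ly6C+ replicate 1 or 2 (adjusted p = 0.0850 or 0.0753 by limma) was left out, and likewise for Ly6C- replicate 2 or 3 (0.0853 or 0.0518).

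Enzymes that produce hydrogen peroxide or superoxide were called in 5 of 15 tested, all higher in Ly6C+ pCAFs (median log2 fold change 0.79). The share called was 33.3%, against 17.1% of all genes tested. Besides Duox2, described below, Ncf4, Noxo1 and Ero1lb entered the test only through their Ly6C+ means. Maoa entered only through its Ly6C- mean. None of these genes but Duox2 was called, and the median was the value of Ero1lb (means 8.51 and 4.41), so it depends on the filter. Duox1, a dual oxidase that makes hydrogen peroxide, measured 174, 92.5 and 81.1 in Ly6C+ against 16.7, 11.9 and 13.1 in Ly6C- libraries, 8.34-fold higher (adjusted p = 6.02e-05 by limma). Xdh, xanthine dehydrogenase, was 2.62-fold and Maob, a monoamine oxidase, 3.12-fold higher. Duox2 had 57 reads in Ly6C+ and 0 in Ly6C- libraries and was highest in Ly6C+ replicate 1 (25.0, 3.01 and 9.27). It entered the test only through its Ly6C+ mean of 12.4. Without that replicate the calls of Duox2 (adjusted p = 0.0813) and Xdh (0.0537) ended, and the list had 2 higher and 1 lower. The fifth was the collagen cross-linking oxidase gene Lox, named after its values were seen. Its adjusted p by limma was 0.0441, and 0.0829 to 0.162 without Ly6C+ replicate 1, 2 or 3 or Ly6C- replicate 1 or 2, 0.113 after quantile normalization, 0.0772 scaled to library totals and 0.124 without the trend.

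**Figure D5:**
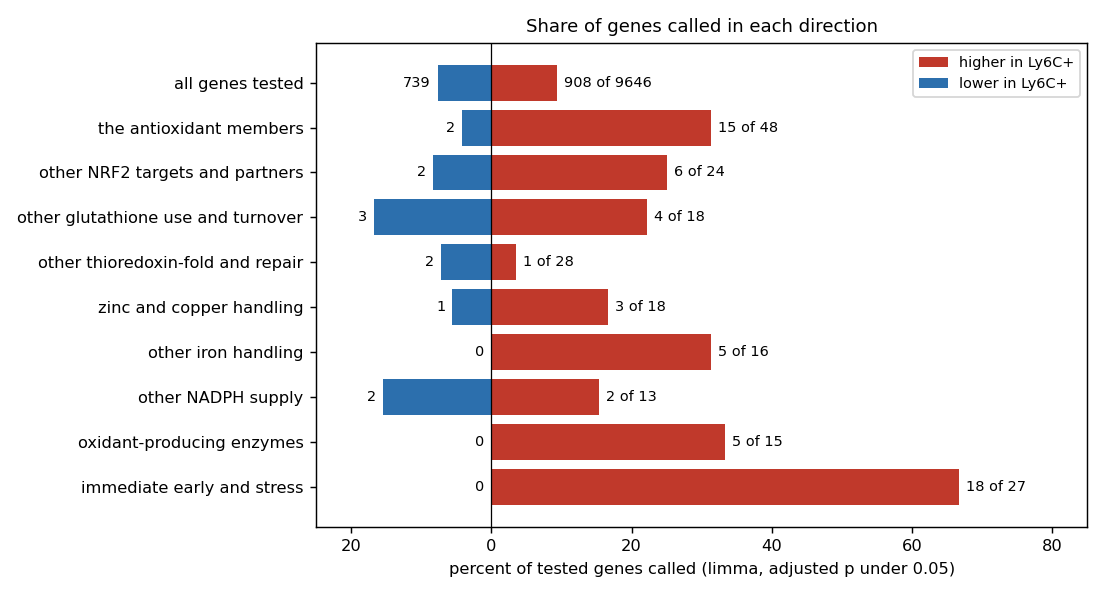
Percent of tested genes called higher (red, right) or lower (blue, left) in Ly6C+ pCAFs among all 9646 genes tested, the 48 tested members and 8 further gene lists, with counts beside the bars. The members reached 15 higher and 2 lower of 48, against 908 and 739 of 9646 for all genes.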

How the data were processed

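The 6 libraries, 3 of Ly6C+ and 3 of Ly6C- pCAFs, were grouped by their titles. The signal column of each library holds normalised counts, made by the authors from reads per gene and a scaling factor for that library, as its values show. Libraries were 3′ end mRNA libraries per the labels' protocols, so counts do not scale with gene length. The submitters' processing notes list bcl2fastq, STAR (version 2.4.2a), HTSeq and the mm10 build. Annotation, strand setting and gene filter are not given in the sources used here. All values (100%, tolerance 0.001) were whole multiples of a library's smallest step, which gave back the reads.

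Tests used log2(value + 1) of the 9646 genes with a mean of at least 5 and were run in R 4.3.3 by limma 3.58.1 without a block, fitting a trend of variance on mean, two-sided, with Benjamini-Hochberg adjustment. The 20 alternatives changed the pseudocount (0.5 or 5), the filter (none, or a mean of 20), the scaling (3 ways), the trend or the prior, added the replicate number as a block, used edgeR 4.0.16 (TMM or RLE) or DESeq2 1.42.0 on the recovered reads, or left out a library. Fits were tested on simulated data. Intervals are 95%. Depth of 1176909 to 2818269 reads over the genes in the table limits genes with few reads. RefSeq gave the promoter windows and GENCODE M21 the positions and overlaps; 50-base stretches shared with other genes were sought in the last 500 bases of a transcript. Any member could be named, and of each further list up to 4 genes with the smallest p. Members and lists were chosen with earlier results of these data known. Figures used Python 3.11.15 and matplotlib 3.10.9.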

Additional observations from a re-analysis of the deposited data

How the results depend on the processing

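Of the 17 called members, 11 passed in all 20 alternatives, 6 (Fth1, Gsr, Gstm2, Gstm4, Gstm5 and Gstt3) failed in at least 1, and none changed sign. Leaving out a library gave 9 to 16 members higher, with 9 without Ly6C+ replicate 1 or 2, and 2 lower each time; the number of all genes called was 1121 to 1728. The other alternatives gave 13 to 17 members higher. Log2 fold changes near 0 turned sign. Scaled to library totals they were -0.12 for G6pdx, -0.10 for Gpx1, -0.031 for Gpx7, -0.19 for Keap1, -0.12 for Mgst3, -0.14 for Prdx5, -0.19 for Prdx6 and -0.090 for Nup93. After quantile normalization they were -0.12 for Gpx1, -0.042 for Mgst3, -0.22 for Prdx5 and -0.049 for Prdx6. Keap1 was -0.00030 with recomputed median-of-ratios, -0.017 in edgeR (TMM), -0.015 (RLE), -0.016 in DESeq2 and -0.0056 in edgeR with the block. Prdx6 was -0.0084 in edgeR (TMM), -0.010 (RLE) and -0.010 in DESeq2. Leaving out 1 library at a time gave ranges of -0.00090 to 0.20 for G6pdx, -0.093 to 0.23 for Gpx1, -0.21 to 0.054 for Gpx4, -0.22 to 0.085 for Gpx8, -0.57 to 0.053 for Gstp1, -0.35 to 0.096 for Hmox2, -0.13 to 0.094 for Keap1, -0.39 to 0.45 for Mgst3, -0.23 to 0.011 for Pgd, -0.21 to 0.065 for Prdx3, -0.25 to 0.27 for Prdx5, -0.13 to 0.18 for Prdx6, -0.15 to 0.11 for Txn1, -0.32 to 0.10 for Txnrd2 and -0.041 to 0.18 for Nup93. The cause was not tested.

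Same-numbered libraries deviated together weakly (correlations 0.129, 0.0518 and 0.167), and each library correlated best with its own number. The numbers were not taken as pairs in the main fit because the labels do not say what a repetition shares. With the replicate block 2088 genes were called in limma and 2112 in edgeR, against 1647, with 17 members higher and 2 lower; Gstk1 (adjusted p = 0.0240) and Gstt2 (0.0441) were then also called in limma.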
